A study of Mus musculus with 10 samples.

Results

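Choroid plexus genes are described here in microglial fractions of mouse cortex. The 8 genes are Ttr, Kl, Folr1, Clic6, Kcnj13, Otx2, Aqp1 and Enpp2, out of 24421 gene symbols counted in every library. They were chosen by name as genes of the choroid plexus epithelium, with their values in these same libraries already known. Their levels and the differences between groups are therefore given as a description without a test. All 8 passed the filter on low counts that left 18727 genes.

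The study sequenced total RNA from cortical cells of 9-month-old mice, labelled as microglia. There were 3 libraries from WT mice, 4 from APP/PS1 mice and 3 from APP/PS1 mice given N-AS (N-acetyl sphingosine) by injection. Each library was a pool of 2 mice. APP/PS1 mice, a model of Alzheimer's disease, overexpress the hAPP695swe and presenilin-1 M146V transgenes, and the injected mice carry the same transgenes. N-AS was given subcutaneously at 30 mg/kg every day for 8 weeks, starting at 7 months of age. The study's results and legends describe APP/PS1 mice without N-AS as given vehicle, which the sample labels do not state. The methods name male mice only, and the promoters that drive the transgenes are not given in the sources used here. Cortex was minced, digested with papain and spun on a density gradient, with no sort for a surface marker.

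The choroid plexus hangs in the ventricles of the brain and makes cerebrospinal fluid. Its epithelial cells secrete proteins such as transthyretin into the fluid, take folate across from the blood, and move ions and water through channels and exchangers on their apical and basolateral faces. It is not part of the cortex, and transcripts such as Ttr are known as markers of choroid plexus tissue in dissected brain samples. Some of the 8 genes are also used by other cells: Enpp2 by oligodendrocytes, Aqp1 by red cells and some endothelium, Kcnj13 by the retinal pigment epithelium and Otx2 by retina and midbrain.

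Start regions of 3 of the genes are printed as a description. These genes kept different shares of their level in 2 libraries described below, and a link between start region and share was not tested. Each is the 250 bases before the RefSeq start in GRCm38.p6, read 5′ to 3′ on the strand of the gene, with TATAAA or its reverse complement TTTATA in capitals. Kl is on chr5:150952357-150952606 (+), Aqp1 on chr6:55336049-55336298 (+) and Kcnj13 on chr1:87394730-87394979 (−).
Kl: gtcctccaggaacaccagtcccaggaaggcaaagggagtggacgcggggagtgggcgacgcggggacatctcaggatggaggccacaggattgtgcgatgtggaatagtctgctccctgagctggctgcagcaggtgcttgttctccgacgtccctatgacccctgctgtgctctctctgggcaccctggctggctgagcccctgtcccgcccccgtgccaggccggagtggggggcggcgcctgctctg
Aqp1: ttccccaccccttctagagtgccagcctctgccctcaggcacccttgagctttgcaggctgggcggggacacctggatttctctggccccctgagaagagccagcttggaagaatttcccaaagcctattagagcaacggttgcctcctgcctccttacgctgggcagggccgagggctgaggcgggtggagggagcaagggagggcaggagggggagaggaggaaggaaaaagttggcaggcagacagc
Kcnj13: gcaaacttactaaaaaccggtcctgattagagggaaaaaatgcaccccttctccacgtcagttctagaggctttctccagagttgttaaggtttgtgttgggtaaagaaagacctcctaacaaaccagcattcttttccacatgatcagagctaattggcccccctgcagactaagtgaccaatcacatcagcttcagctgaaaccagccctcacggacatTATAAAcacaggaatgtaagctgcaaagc
The GC content was 66.8% for Kl, 62.0% for Aqp1 and 45.2% for Kcnj13, against a median of 52.4% over all promoters in the table. TATAAA stood 29 bases before the start of Kcnj13, and 12.4% of all 32851 promoters held it on one strand or the other.

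The same windows were searched for TAATCC and its reverse complement GGATTA, the letters that OTX-class homeodomain proteins are known to bind. Of the 4 genes with a promoter in the table, only Otx2 held it, and the 30 bases around the match, in capitals on the gene's strand, are printed as chr14:48665303-48665332 (−).
Otx2: cgtgtgcccctcGGATTAtctcgttagttt
The match began 211 bases before one of the starts of Otx2, and all 250 bases of that window are annotated as exon. The windows before the other starts of Otx2 held no match. Of all promoters 6.25% held these letters. Of all genes with a promoter 7.21% had them in at least 1, and of 46 other choroid plexus genes 4 did (8.70%). The 4 were Ace, Car14, Slc39a12 and Vat1l. A match is a description of letters and was not tested for binding. Promoters of Ttr, Folr1, Clic6 and Enpp2 were not analysed here.

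Depth was 8805804 to 19432075 reads per library. In every library microglial genes were read next to those of other cells: Csf1r, the receptor microglia need to survive, ranged from 158.5 to 548.9 CPM, while 10 oligodendrocyte markers summed to between 1976.2 and 7152.4 CPM and Snap25 of neurons ranged from 538.5 to 2540.9 CPM. CPM are read counts scaled to a common library size, here with TMM factors. WT replicate 1 had the fewest reads, yet only 566 symbols were at 0 in it. There were 1013 in WT replicate 3, 838 and 837 in APP/PS1 replicates 3 and 4, and 1740 in N-AS replicate 3. The remaining libraries had 2940 to 3985. Xist, the RNA that silences an X chromosome in females, was read 33 to 37 times in WT, 5253 to 11188 times in APP/PS1 and 7024, 8848 and 29 times in N-AS replicates 1, 2 and 3. Ddx3y, a Y-linked gene, was at 68.9 to 73.2 CPM in WT, 73.3 CPM in N-AS replicate 3, 13.6 to 26.8 CPM in replicates 1 and 2 of both transgenic groups, and 0.475 and 0.477 CPM in APP/PS1 replicates 4 and 3. The APP/PS1 libraries and N-AS replicates 1 and 2 thus went against the stated sex, and sex and transgene cannot be told apart between APP/PS1 and WT. They were not alike, since replicates 1 and 2 of both transgenic groups had many Xist reads together with Ddx3y between the levels of WT and of APP/PS1 replicates 3 and 4. Whether these pools of 2 mice held both sexes was not tested. N-AS replicate 3 did not go against it, so the N-AS group was mixed in these 2 genes. Comparisons of N-AS with APP/PS1 or WT, and ratios of N-AS replicate 3 to the rest of its group, therefore also mix sex in. WT replicates 1 and 2 had as few Xist reads as WT replicate 3 and N-AS replicate 3 but many Ttr reads. The part of sex in the choroid plexus genes was not tested.

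WT replicate 3 and N-AS replicate 3 stood apart in most of the 8 genes. They held 0.0255% and 0.0245% of their reads on the 8 genes together, and the other libraries held 0.103% to 0.212%. Differences between groups are therefore also given without these 2 libraries.

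Ttr encodes transthyretin, the carrier of thyroxine and retinol-binding protein that the choroid plexus secretes, and it lies on chromosome 18. WT replicates 1, 2 and 3 had 3136, 6031 and 36 Ttr reads, or 371.3, 373.2 and 1.73 CPM. APP/PS1 replicates 1 to 4 had 9608, 13893, 12142 and 13771 reads, or 828.9, 1147.3, 827.9 and 654.6 CPM. N-AS replicates 1, 2 and 3 had 8855, 14778 and 9 reads, or 583.0, 782.9 and 0.664 CPM. WT replicates 1 and 2 were nearly level, every APP/PS1 library was above every WT library, and the third replicates of WT and N-AS were far below all the others. As a share of all reads, Ttr was 0.000188% in WT replicate 3 (95% Wilson interval 0.000136% to 0.000261%) and 0.0000706% in N-AS replicate 3 (0.0000371% to 0.000134%). In the other 8 libraries the share lay between 0.0353% and 0.111%. These intervals cover counting error only. WT replicate 3 had 0.466% of the mean CPM of the other 2 WT libraries, and N-AS replicate 3 had 0.0973% of the mean of its own 2. Of the 18727 genes tested, 0.0160% were as low or lower in WT replicate 3 by this ratio, and 0.144% in N-AS replicate 3. In bulk RNA, fewer cells of a type and less RNA per cell cannot be told apart.

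**Figure D1:**
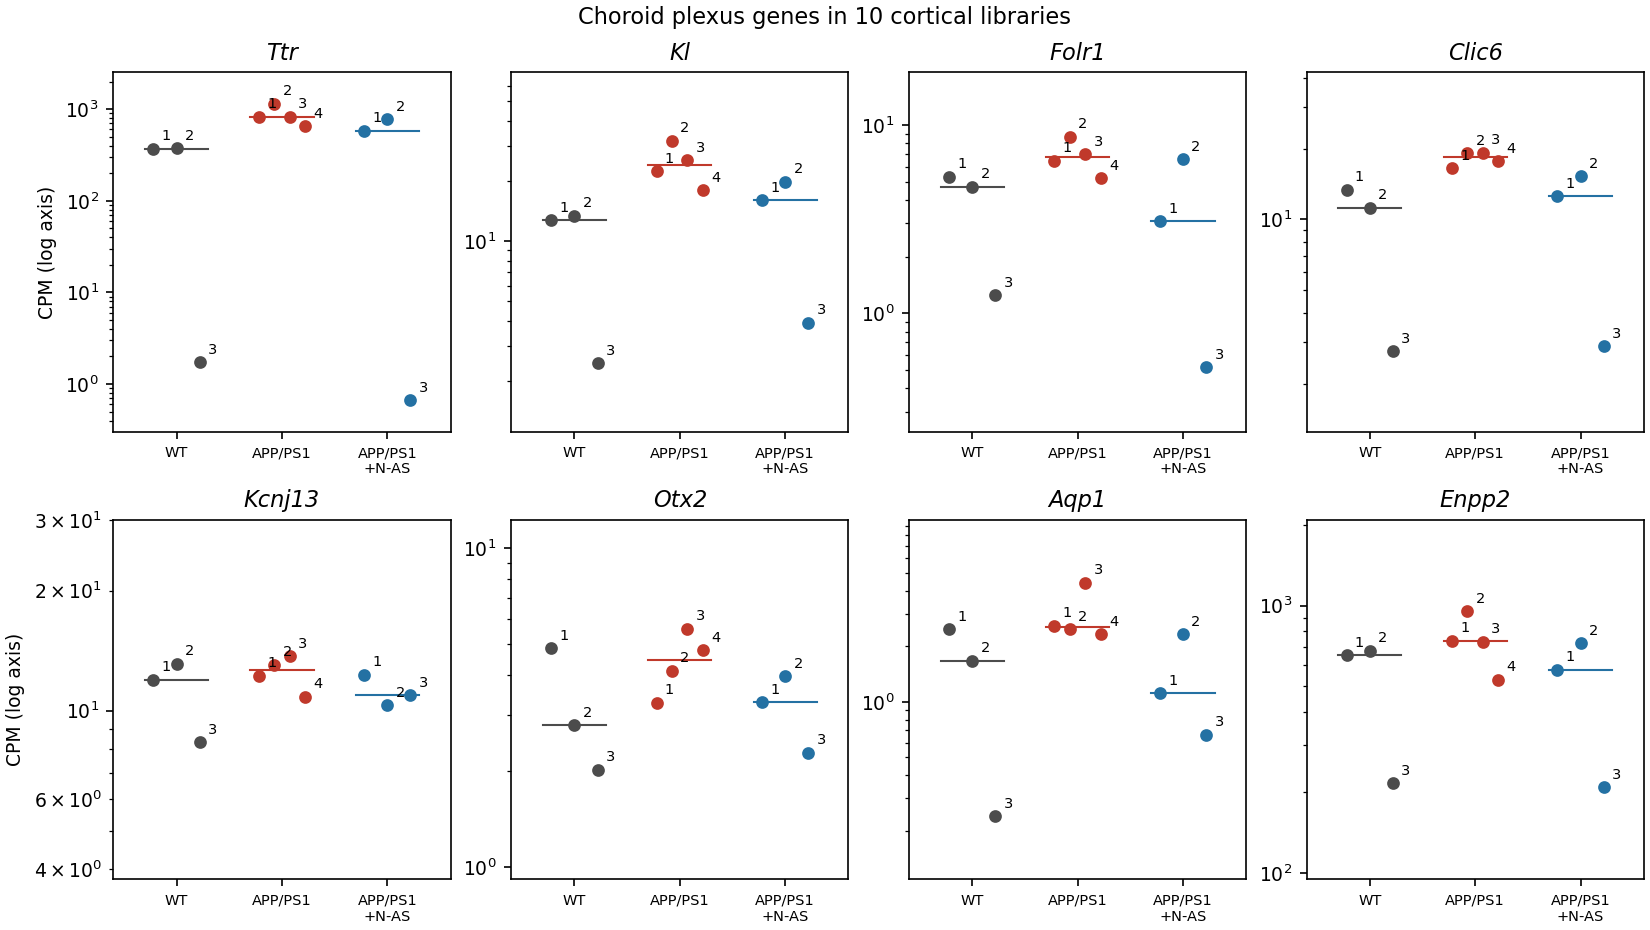
CPM of each of the 8 choroid plexus genes (log axis, a separate scale per gene) in WT, APP/PS1 and APP/PS1+N-AS. Points are libraries with their replicate number and lines are group medians. The third replicates of WT and N-AS are the lowest 2 of the 10 libraries for every gene except Kcnj13, where N-AS replicate 3 lies within its group.

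Enpp2 encodes autotaxin, a secreted enzyme that makes lysophosphatidic acid, and lies on chr15:54838901-54952892 (−). WT replicates 1, 2 and 3 had 653.1, 678.2 and 216.5 CPM. APP/PS1 replicates 1 to 4 had 738.4, 953.5, 733.1 and 528.7 CPM, and N-AS replicates 1, 2 and 3 had 575.5, 723.8 and 208.8 CPM. The same 2 libraries were the lowest, but they kept 4496 and 2829 reads, which was 32.5% and 32.1% of the mean of the other libraries of their group. In these 2 libraries Enpp2 made up 92.0% and 90.5% of the reads of the 8 genes, and Ttr 0.737% and 0.288%. In the remaining 8 libraries Enpp2 made up 42.6% to 61.7% and Ttr 34.0% to 52.7%. Markers of oligodendrocytes, which also use Enpp2, summed to 2469.6 CPM in WT replicate 3 (34.9% of the mean of the other 2) and to 2939.2 CPM in N-AS replicate 3 (74.1%). The lowest sums of all libraries were in APP/PS1 replicates 3 and 4, at 1976.2 and 2026.7 CPM, where Enpp2 was at 733.1 and 528.7 CPM. The part of oligodendrocytes in the Enpp2 reads was not tested. An antisense gene, Gm26684, shares 5.97% of the exon bases of Enpp2, and the sources used here do not say whether reads were counted by strand.

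Kl encodes klotho, a coreceptor for fibroblast growth factor 23 whose outer part is shed into the cerebrospinal fluid (chr5:150952607-150993817, +). Its CPM were 12.8, 13.4 and 2.46 in WT replicates 1, 2 and 3, and 22.3, 31.8, 25.5 and 18.02 in APP/PS1 replicates 1 to 4. They were 16.0, 19.9 and 3.91 in N-AS replicates 1, 2 and 3. As with Ttr, each APP/PS1 library was above each WT library, and the third WT and N-AS replicates were the lowest of their groups, at 18.7% and 21.8% of the others. These 2 libraries had 51 and 53 Kl reads, more than their 36 and 9 Ttr reads.

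Folr1 encodes folate receptor alpha, which carries folate through the epithelium (chr7:101858331-101870788, −). Its CPM were 5.33, 4.70 and 1.25 in WT replicates 1, 2 and 3, and 6.47, 8.67, 7.02 and 5.23 in APP/PS1 replicates 1 to 4. In N-AS replicates 1, 2 and 3 they were 3.10, 6.57 and 0.517. WT replicate 1 lay above the lowest APP/PS1 library, so the groups overlapped, and the third N-AS replicate had 7 reads in all. The 2 low libraries stood at 25% (just below it before rounding) and 10.7% of the rest of their groups.

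Clic6 encodes a chloride intracellular channel protein (chr16:92485736-92541243, +). Its CPM were 13.4, 11.2 and 2.75 in WT replicates 1, 2 and 3, and 16.5, 19.2, 19.2 and 17.7 in APP/PS1 replicates 1 to 4. N-AS replicates 1, 2 and 3 had 12.6, 15.3 and 2.88 CPM. Here the APP/PS1 libraries were close together and above all WT and all N-AS libraries. The third WT and N-AS replicates were at 22.3% and 20.6% of the other libraries of their groups.

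Aqp1 encodes aquaporin-1, the water channel of the apical membrane (chr6:55336432-55348555, +), and had the fewest reads of the 8 genes. WT replicates 1, 2 and 3 had 21, 27 and 5 reads, or 2.49, 1.67 and 0.241 CPM. APP/PS1 replicates 1 to 4 had 2.59, 2.48, 4.43 and 2.33 CPM, and N-AS replicates 1, 2 and 3 had 1.12, 2.33 and 0.664 CPM. The low libraries were at 11.6% and 38.5% of the rest of their groups, and with 5 and 9 reads these shares are imprecise. APP/PS1 and WT overlapped because WT replicate 1 was above 2 of the APP/PS1 libraries.

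Kcnj13 encodes the inward rectifier potassium channel Kir7.1 and did not follow Ttr. Its CPM were 11.96, 13.1 and 8.33 in WT replicates 1, 2 and 3, and 12.3, 13.1, 13.7 and 10.8 in APP/PS1 replicates 1 to 4. N-AS replicates 1, 2 and 3 had 12.3, 10.3 and 10.9 CPM. All 3 groups overlapped, N-AS replicate 3 was at 96.5% of the other N-AS libraries, and WT replicate 3 was at 66.4% of the other WT libraries. Of all genes tested, 27.3% were as low or lower in WT replicate 3. Kcnj13 (chr1:87386363-87394729, −) lies inside Gigyf2, a gene on the other strand, and 49.1% of its exon bases (623 of 1270) are also annotated as exon of Gigyf2. Gigyf2, a widely used regulator of translation, was read at 145.5 to 222.4 CPM, and its level in WT replicate 3 and N-AS replicate 3 was 87.2% and 81.3% of the rest of their groups. Without stated counting by strand, reads of Kcnj13 and Gigyf2 cannot be told apart. How many Kcnj13 reads came from Gigyf2 was not tested.

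Otx2 encodes a homeodomain transcription factor that the choroid plexus needs to form (chr14:48657677-48673819, −). It had 4.85, 2.79 and 2.02 CPM in WT replicates 1, 2 and 3, and 3.28, 4.13, 5.59 and 4.80 CPM in APP/PS1 replicates 1 to 4. N-AS replicates 1, 2 and 3 had 3.29, 3.97 and 2.29 CPM. The groups overlapped. The third WT and N-AS replicates were again lowest, but at 53.0% and 63.0% of the rest of their groups, with 42 and 31 reads. Otx2 shares 3.65% of its exon bases with Otx2os1 on the other strand and 3.98% with Gm49154 on its own. Otx2os1 was at 0 to 0.7104 CPM, and reads of the overlap cannot be assigned.

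Set against exon length, the order of the genes changed between libraries. On the scale of CPM per kilobase of annotated exon, Ttr was the highest of the 8 in the 8 libraries other than WT replicate 3 and N-AS replicate 3, at 313.1 to 967.4. Enpp2 was second there, at 91.5 to 165.0, followed by Kcnj13 at 8.13 to 10.8. Clic6 came next in each of them, at 2.86 to 4.91, with a range that overlapped that of Folr1. Kl (1.37 to 3.41) and Folr1 (1.35 to 3.78) overlapped in their ranges, as did Otx2 (0.660 to 1.32) and Aqp1 (0.426 to 1.69). In WT replicate 3 and N-AS replicate 3 Enpp2 came first, at 37.5 and 36.1, and Kcnj13 second, at 6.56 and 8.60, while Ttr was at 1.46 and 0.560.

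The genes also differed in how they followed Ttr among the 8 libraries with many Ttr reads. For each 100 Ttr reads there were 2.54 to 3.60 Kl reads, a spread of 1.42 times. The spread was 2.16 times for Clic6, 2.25 for Enpp2, 2.70 for Folr1, 3.09 for Kcnj13, 3.49 for Aqp1 and 3.63 for Otx2. Kl thus kept the steadiest ratio to Ttr of the 7. In WT replicate 3 and N-AS replicate 3 there were 141.7 and 588.9 Kl reads per 100 Ttr reads, and 12488.9 and 31433.3 Enpp2 reads. The ratios within these 2 libraries rest on 36 and 9 Ttr reads.

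Over the same 8 libraries (n = 8), Pearson's r of log2 CPM with Ttr was 0.965 for Kl (Spearman's rho 0.976), 0.841 for Clic6 (0.762), 0.645 for Folr1 (0.762) and 0.568 for Enpp2 (0.786). It was 0.408 for Aqp1 (0.476), 0.248 for Otx2 (0.0476) and 0.0209 for Kcnj13 (0.167). With CPM of total counts in place of TMM scaling, r was 0.396 for Otx2 and 0.254 for Kcnj13. After the group means were removed, r was 0.976 for Enpp2, 0.963 for Kl, 0.864 for Folr1, 0.508 for Clic6, 0.301 for Aqp1, 0.222 for Kcnj13 and −0.0576 for Otx2. In these libraries Enpp2 thus followed Ttr more closely within groups than across them. WT replicates 1 and 2 barely differed in Ttr (371.3 and 373.2 CPM), and N-AS gave only replicates 1 and 2. The values within groups therefore rest mostly on APP/PS1. No value over all 10 libraries is given, since the libraries fall into 2 separate sets on Ttr. The points share library and depth, and the correlations are a description without a p.

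**Figure D2:**
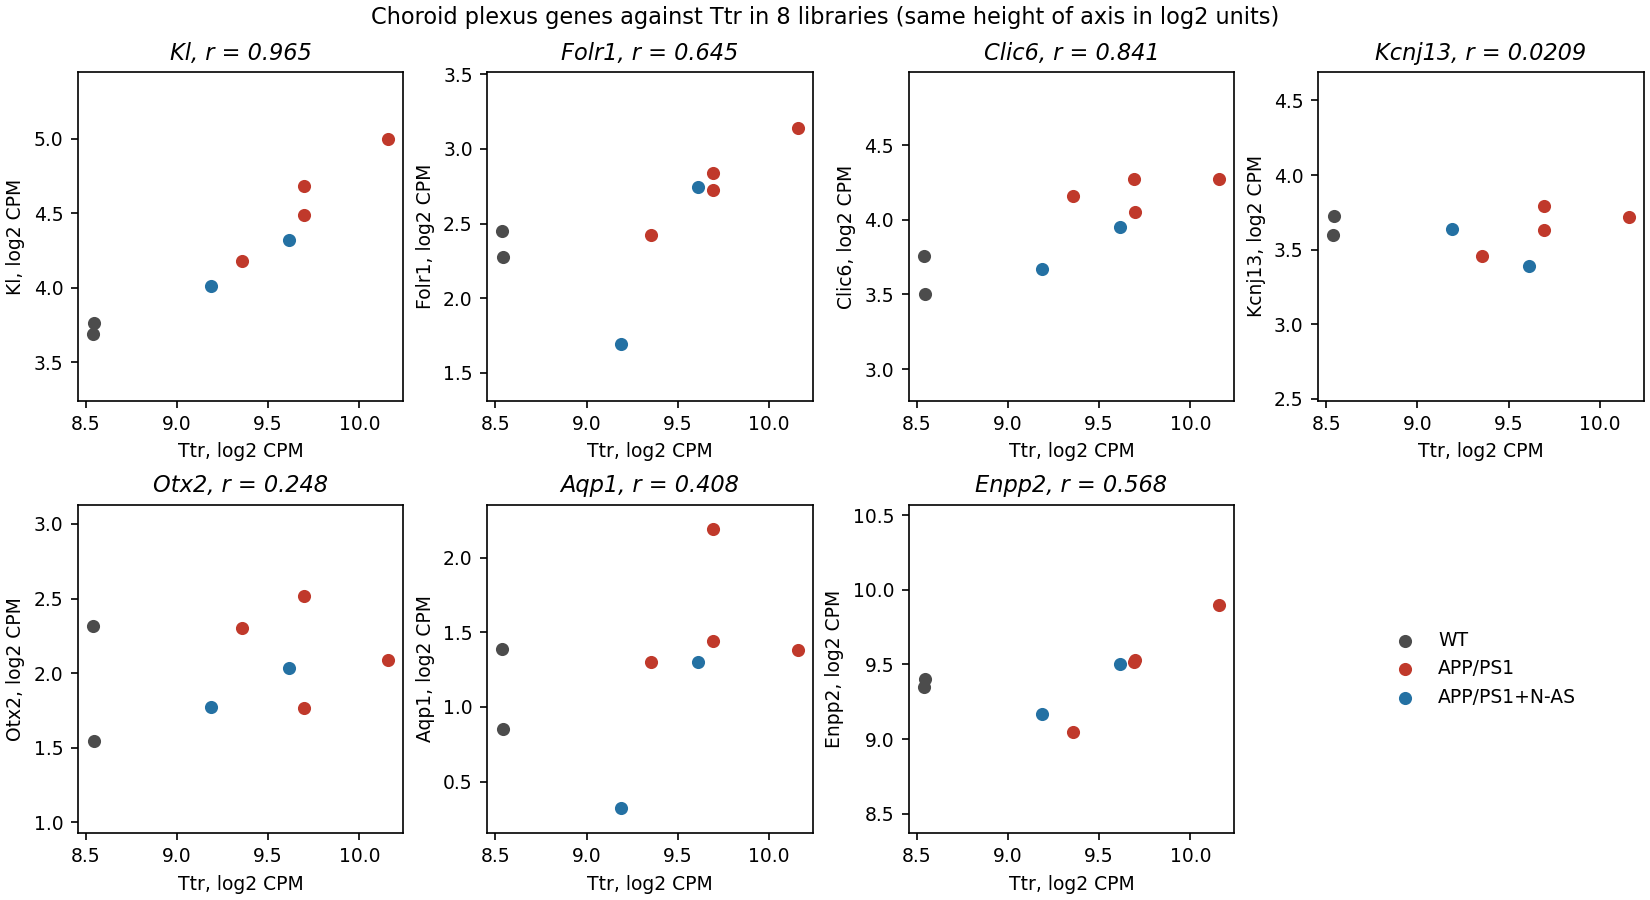
Log2 CPM of 7 choroid plexus genes (vertical axes, all of the same height in log2 units) against log2 CPM of Ttr (horizontal axes) in 8 libraries, without WT replicate 3 and N-AS replicate 3. Points are libraries coloured by group, and Kl lies closest to a line (r = 0.965) while Kcnj13 is flat (r = 0.0209).

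When the 17184 genes outside the 8 with a mean of at least 1 CPM were ranked by their likeness to Ttr across the 10 libraries, the first 6 were Slc4a5, Kcne2, Cldn2, Sostdc1, F5 and Tmem72. All 6 belong to a list of 58 other choroid plexus genes. The order over 10 libraries rests largely on which genes were low in WT replicate 3 and N-AS replicate 3. It does not measure likeness to Ttr within the other 8 libraries, which is given below. Slc4a5, a sodium bicarbonate cotransporter, had 5.88 to 14.05 CPM in the 8 libraries with many Ttr reads and 0.771 and 0.664 CPM in WT replicate 3 and N-AS replicate 3. Kcne2, a potassium channel subunit, had 2.90 to 7.18 CPM in those 8 and 2 reads in each of these 2. Cldn2, the claudin of leaky epithelia, had 1.79 to 5.62 CPM in the 8, and 4 and 3 reads in the 2. F5, coagulation factor V, kept 72 and 65 reads in the 2 low libraries.

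Within the 8 libraries, r with Ttr was 0.915 for F5, 0.905 for Cldn2, 0.826 for Slc4a5, 0.793 for Kcne2, 0.528 for Tmem72 and 0.527 for Sostdc1. The next 4 genes in the ranking, Irf1, Pdlim2, Ntn1 and Vgll4, are on none of the choroid plexus lists, and their r within the 8 libraries was 0.0699, 0.200, 0.328 and 0.730. With the 8 genes again left out of the ranking over 10 libraries, the nearest 3 genes to Kl were F5, Cldn2 and Kcne2. The nearest 3 to Clic6 were Slc4a5, Cldn2 and Kcne2. For Enpp2 they were Kcne2, Sostdc1 and Slc4a5, and for Folr1 they were Slc4a5, Kcne2 and Csgalnact2. None of the nearest 3 genes of Kcnj13 (Gm16336, Lmf2, Hmga2), Otx2 (Arhgap27os3, Cep55, D730005E14Rik) or Aqp1 (Chrnb1, Elf1, Cyp39a1) was a choroid plexus gene of the lists.

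Of the 58 other choroid plexus genes, 55 passed the filter, and 5 of them were under 25% of the rest of the group in both WT replicate 3 and N-AS replicate 3. They were F5 (19.0% and 20.1%), Tmem72 (14.1% and 16.2%), Slc4a5 (11.3% and 8.41%), Cldn2 (9.53% and 7.74%) and Kcne2 (2.67% and 3.96%). Of the 8 genes, 4 were under 25% in both (Ttr, Kl, Folr1 and Clic6), and of all genes tested 39 were (0.208%). The median of the 55 was 59.0% in WT replicate 3 and 78.0% in N-AS replicate 3, beside 91.1% and 99.9% over all genes tested. Among the roles, the 7 transcription factors kept 45.7% to 68.9% in WT replicate 3 and 85.0% to 98.8% in N-AS replicate 3. Of these, Msx2, Otx1 and Tfap2b had the highest levels, with means of 194.6, 107.5 and 48.9 CPM. Shares in WT replicate 3 depend on WT replicate 1 as well as WT replicate 2. Tfap2b was at 88.7, 44.1 and 45.7 CPM in WT replicates 1, 2 and 3, so its share below 100% came from WT replicate 1. Msx2 (309.2, 200.3 and 150.4 CPM) and Otx1 (161.4, 105.1 and 64.5 CPM) were lowest in WT replicate 3.

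**Figure D3:**
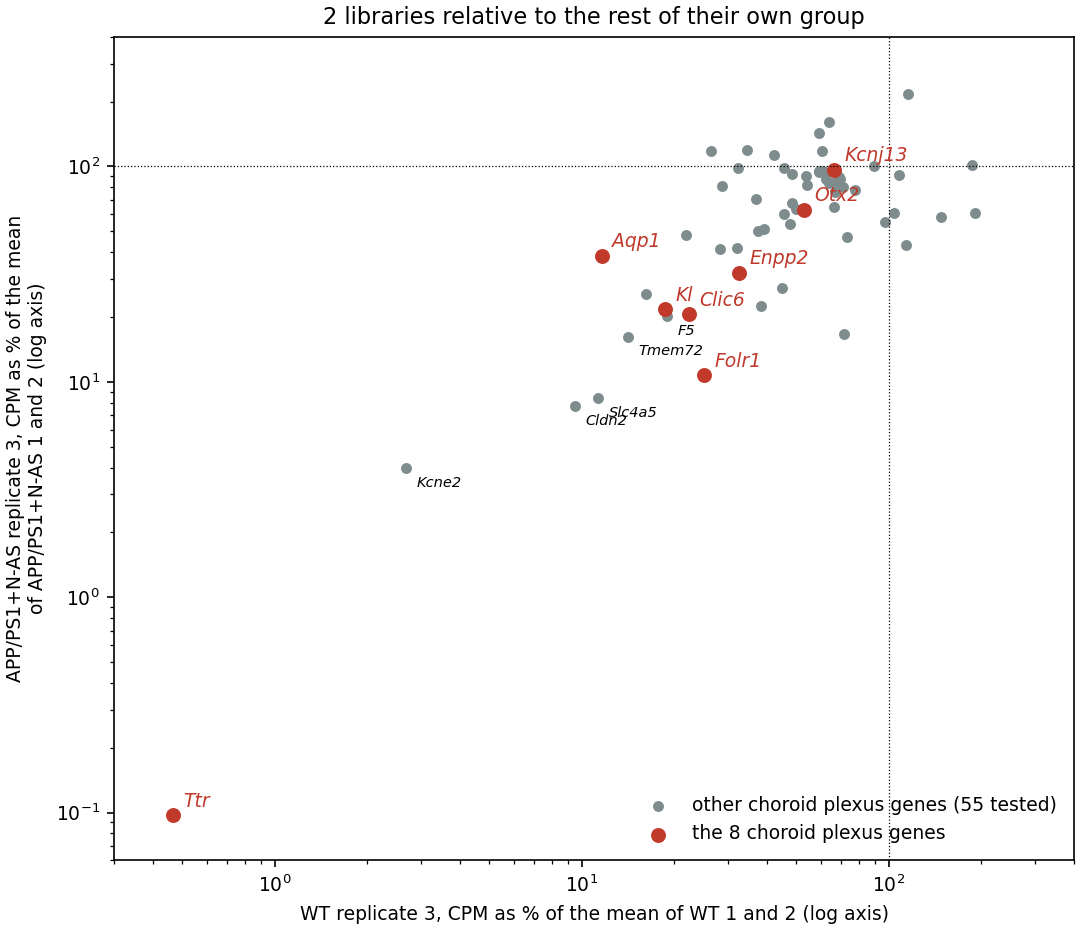
CPM in WT replicate 3 (horizontal) and N-AS replicate 3 (vertical) as a percent of the mean of the other 2 libraries of the same group, both on log axes. Red points are the 8 choroid plexus genes, grey points the 55 other choroid plexus genes tested, and dotted lines mark 100%; Ttr lies lowest at 0.466% and 0.0973%, while Kcnj13 is near the dense group of grey points.

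Among other genes of high level in each role, the transporters Abcc4, Atp2b3 and Trpm3 had means of 150.3, 120.9 and 92.0 CPM, and Atp2b3 was at 186.7% in WT replicate 3. Of the secreted and matrix genes, Igf2, Col8a1 and Lbp had means of 71.2, 65.7 and 44.6 CPM, and Igf2 was at 32.3% in WT replicate 3 but 98.2% in N-AS replicate 3. Of the receptors, Ace, Prlr and Lepr had 71.4, 45.1 and 21.7 CPM, and Ace was at 39.1% and 51.4% and Prlr at 37.5% and 50% in the 2 libraries. Ezr, Perp and Epn3 of the junction and keratin genes had 72.3, 23.3 and 4.73 CPM, and Ezr was at 70.9% and 80.2%. Many of these genes are also used by neurons, vessels or meninges.

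Marker lists of other tissues did not move alike in the 2 low libraries. In WT replicate 3, meningeal markers summed to 354.5 CPM (40.0% of the mean of the other WT libraries), endothelial and pericyte markers to 585.9 CPM (43.5%), ependymal markers to 83.3 CPM (63.7%) and neuronal markers to 4922.5 CPM (306.8%). In N-AS replicate 3 the same lists summed to 1031.0 CPM (120.1%), 1135.0 CPM (98.4%), 129.2 CPM (134.7%) and 2848.3 CPM (141.6%). Erythrocyte markers were at 84.0% and 55.0%, retinal pigment epithelium markers at 69.9% and 87.8%, astrocyte markers at 115.4% and 142.7%, and microglial markers at 141.5% and 79.7%. Thalamic markers were at 70.6% and 80.4%, striatal markers at 204.4% and 66.5% and hippocampal markers at 86.9% and 96.8%. No gene of these lists was at 0 in all libraries, and 2 were at 0 in some (Tyrp1 and Gbx2). The meningeal sum was mostly Ptgds, at 836.5 CPM in N-AS replicate 3 and 523.2 and 777.5 CPM in N-AS replicates 1 and 2. Col1a2, the next highest meningeal marker, was at 69.9 CPM in N-AS replicate 3 and 78.6 and 98.2 CPM in the others. The meningeal sum therefore does not show that meningeal markers as a set were higher in N-AS replicate 3. Both libraries were thus low in Ttr, whereas ependymal, striatal and microglial markers lay on opposite sides of the rest of the group in them. The part of these cells in the choroid plexus reads was not tested.

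Between APP/PS1 and WT, the log2 fold changes of all 8 genes were above 0 over the 10 libraries. They were 1.80 ± 1.53 (SE) for Ttr, 1.37 ± 0.59 for Kl, 1.07 ± 0.66 for Aqp1, 1.02 ± 0.55 for Clic6, 0.89 ± 0.65 for Folr1, 0.52 ± 0.46 for Enpp2, 0.50 ± 0.34 for Otx2 and 0.17 ± 0.18 for Kcnj13. All libraries of APP/PS1 were above all of WT for 3 of the 8 genes, Ttr, Kl and Clic6, and 8.18% of all genes tested were so placed. The median of the 8 was 0.96, beside −0.07 over all genes tested. Without WT replicate 3 and N-AS replicate 3 the values were smaller for each gene, at 1.23 ± 0.25 for Ttr, 0.90 ± 0.23 for Kl, 0.58 ± 0.15 for Clic6, 0.54 ± 0.44 for Aqp1, 0.46 ± 0.32 for Folr1, 0.26 ± 0.31 for Otx2, 0.16 ± 0.23 for Enpp2 and −0.01 ± 0.15 for Kcnj13. WT replicate 3 decided much of the size for Enpp2, whose WT replicates 1 and 2 lay inside the range of the APP/PS1 libraries. In replicates 1 and 2 alone, Ttr was 371.3 and 373.2 CPM in WT, 828.9 and 1147.3 CPM in APP/PS1 and 583.0 and 782.9 CPM in N-AS.

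Between APP/PS1 mice with and without N-AS, all 8 log2 fold changes were below 0. They were −1.09 ± 0.65 for Aqp1, −0.99 ± 0.64 for Folr1, −0.92 ± 1.48 for Ttr, −0.87 ± 0.57 for Kl, −0.82 ± 0.54 for Clic6, −0.56 ± 0.46 for Enpp2, −0.48 ± 0.33 for Otx2 and −0.16 ± 0.17 for Kcnj13. Only for Clic6 were all N-AS libraries below all APP/PS1 libraries (1 of 8), as they were for 6.43% of all genes tested. Without N-AS replicate 3 and WT replicate 3 all 8 were closer to 0, at −0.76 ± 0.43 for Aqp1, −0.48 ± 0.31 for Folr1, −0.43 ± 0.22 for Kl, −0.37 ± 0.14 for Clic6, −0.33 ± 0.24 for Ttr, −0.29 ± 0.30 for Otx2, −0.18 ± 0.23 for Enpp2 and −0.13 ± 0.15 for Kcnj13. With the replicate number as a block, Ttr was at −3.77.

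Between N-AS-injected APP/PS1 and WT, each group held one of the 2 low libraries. The log2 fold changes were 0.87 ± 1.56 for Ttr, 0.50 ± 0.61 for Kl and 0.21 ± 0.58 for Clic6, and those of the other 5 genes lay between −0.09 and 0.02. The groups overlapped for all 8 genes. In total 8.82% of all genes tested did not overlap here. Without the 2 libraries Ttr was at 0.89 ± 0.27, Kl at 0.47 ± 0.25 and Clic6 at 0.21 ± 0.16, and the other 5 lay between −0.22 and −0.02, so that the standard error of Ttr fell from 1.56 to 0.27. Leaving out only WT replicate 3 gave 0.31 for Ttr, and leaving out only N-AS replicate 3 gave 1.48. The comparisons with APP/PS1 and with WT share libraries and are not independent of each other.

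**Figure D4:**
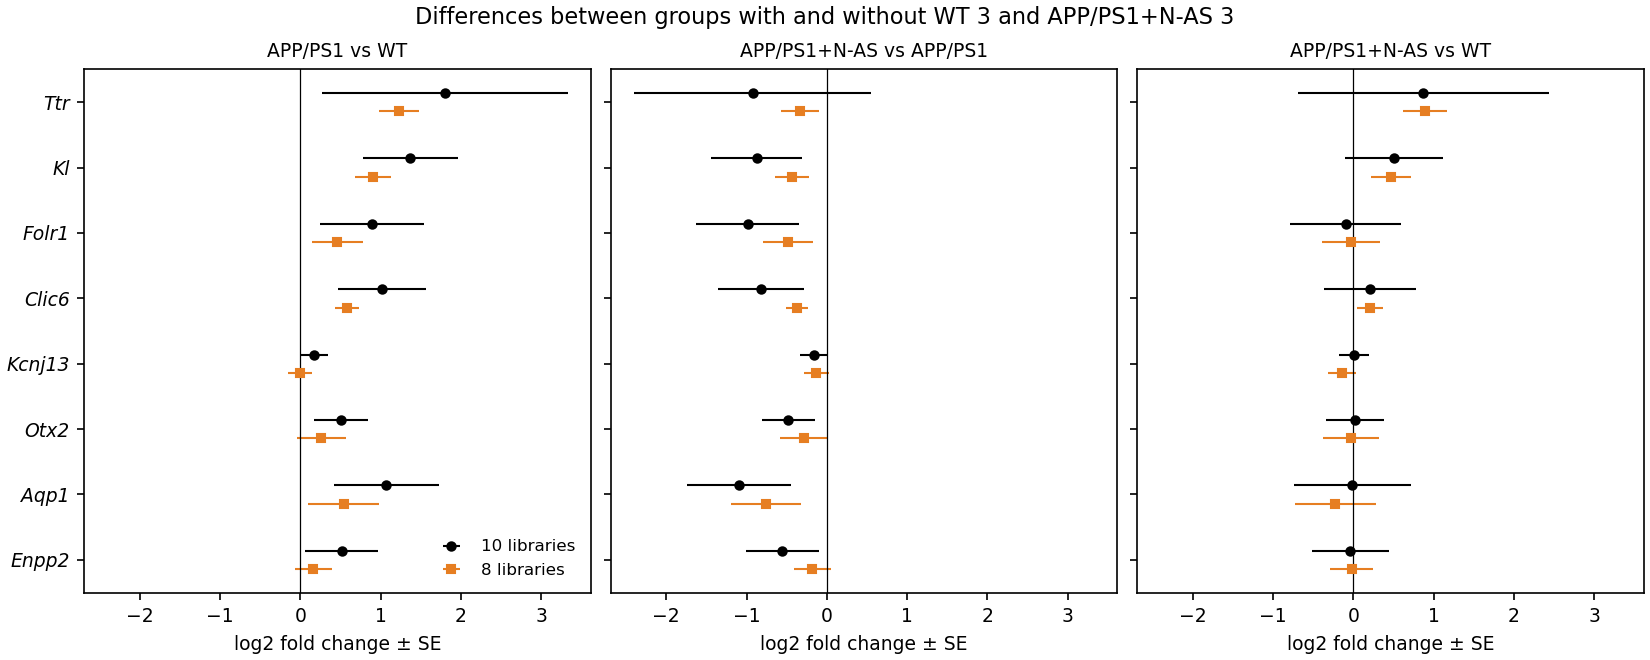
Log2 fold change ± SE of the 8 choroid plexus genes in the 3 comparisons, over all 10 libraries (black circles) and over 8 libraries without WT replicate 3 and N-AS replicate 3 (orange squares). For Ttr in APP/PS1 against WT the value goes from 1.80 ± 1.53 to 1.23 ± 0.25, and for Kcnj13 all values are near 0.

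The 58 other choroid plexus genes, a list that does not hold the 8, were counted with edgeR's quasi-likelihood test and Benjamini-Hochberg adjustment over all 18727 genes. Between APP/PS1 and WT, 1 of 55 rose and 0 fell, beside 3.47% of all genes called (2.67% higher). The gene was Chst11, a chondroitin sulfotransferase, at 24.6 to 26.7 CPM in WT and 32.2 to 40.8 CPM in APP/PS1 (log2 fold change 0.53, SE 0.13, adjusted p = 0.049 from edgeR). In N-AS replicates 1, 2 and 3 it had 25.5, 32.3 and 26.5 CPM. The call was lost when any 1 of 8 libraries was left out, and Chst11 kept it without WT replicate 3 or N-AS replicate 2. The groups did not overlap for 12 of the 55, all higher in APP/PS1, where 8.18% of all genes tested were. The median log2 fold change of the 55 was 0.19, beside −0.07 over all genes.

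Without WT replicate 3 and N-AS replicate 3, which were left out after their low reads on the 8 genes had been seen, 5 of 55 passed the test between APP/PS1 and WT, beside 5.43% of all 19488 genes then tested. All 5 were higher in APP/PS1. They were Slc4a5 (log2 fold change 0.86, adjusted p = 0.0497 from edgeR), F5 (0.86, 0.0333), Trpv4, a cation channel (0.74, 0.0443), Htr2c, a serotonin receptor (0.74, 0.022), and Chst11 (0.58, 0.046). Over all 10 libraries Slc4a5 was at 1.40 ± 0.74 and F5 at 1.32 ± 0.59, so both their size and their standard error were larger with these libraries in. The 2 remaining comparisons called 0 of the 55 in edgeR and 0 in DESeq2, and at an unadjusted p under 0.05 there were 6 for N-AS against APP/PS1 (10.9% of the 55, beside 8.83% of all genes) and 1 for N-AS against WT (1.82%, beside 6.73%). For APP/PS1 against WT there were 10 (18.2%, beside 17.2% of all genes). Of all genes, 0% and 0.187% were called in these comparisons, and the medians of the list were −0.17 and 0.10, beside −0.01 and −0.04 over all genes. Without the 2 libraries they were −0.07 and 0.09, beside −0.03 and −0.01.

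By role, the 15 secreted and matrix genes had a median log2 fold change of 0.30 between APP/PS1 and WT, the 16 transporters and channels 0.26, the 9 receptors tested 0.31, the 8 junction and keratin genes tested 0.24 and the 7 transcription factors tested −0.06. Without the 2 low libraries these medians were 0.11, 0.16, 0.30, 0.10 and −0.31, and that of all 55 was 0.09, beside −0.06 over all genes. Among the microglial markers, for comparison, 11 of 14 rose between APP/PS1 and WT and 0 fell, and of 12 ependymal markers 0 passed. The median log2 fold change of these 12 was 0.58 there and −0.64 between N-AS and APP/PS1, beside −0.07 and −0.01 over all genes. At an unadjusted p under 0.05 from edgeR there were 3 and 6 of the 12, beside 17.2% and 8.83% of all genes. Of 10 oligodendrocyte markers 3 fell and 0 rose, with a median log2 fold change of −1.34, and the part of this in the Enpp2 values was not tested. Ependymal cells line the ventricles beside the choroid plexus, and their markers summed to 83.3 to 142.1 CPM in WT, 114.7 to 249.1 CPM in APP/PS1 and 92.9 to 129.2 CPM in N-AS. Their highest library was APP/PS1 replicate 4, which was the lowest of its group for Ttr, Kl, Folr1, Kcnj13, Aqp1 and Enpp2. The part of ependymal cells in these values was not tested.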

How the data were processed

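Total RNA of cortical cells was depleted of rRNA, made into stranded libraries and sequenced in pairs. The authors aligned the reads with TopHat to mm10 and deposited raw read counts per gene symbol, 1 file per library, without normalization. The annotation and the strand setting of the counting are not given in the sources used here. Lines sharing a symbol (103 lines, 43 symbols) were summed, which left 24421 symbols. Genes were filtered with filterByExpr, scaled by TMM and tested with edgeR 4.0.16 in R 4.3.3 (quasi-likelihood, 1 model of 3 groups, 18727 genes, adjusted p under 0.05, common dispersion 0.0752). DESeq2 1.42.0 was an alternative, and the script was tested on simulated data. Log2 CPM used a prior count of 2. Groups and replicate numbers came from the labels. Libraries of a group differed by 12.7 to 127.4 times sampling noise (chi-square per degree of freedom), so none was a duplicate. Libraries of the 2 APP/PS1 groups with the same number deviated together from their group means (r 0.142 to 0.309), so a replicate block was tried. Libraries with different numbers had r from −0.341 to 0.32, the highest for N-AS replicate 3 and APP/PS1 replicate 4. N-AS replicates 1 and 2 deviated together with APP/PS1 replicates 1 and 2 (r 0.142 to 0.278), and N-AS replicate 3 with APP/PS1 replicates 3 and 4 (0.309 and 0.32). All other pairs of these groups were negative (−0.341 to −0.143). WT replicate 1 did not follow these sets, with r of −0.486 and −0.36 to APP/PS1 replicates 1 and 2. The numbers alone therefore do not set a pairing, and a block of these sets was not fitted.

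The 8 genes and the lists were chosen with earlier results of these data known. Named are the 8 genes, in each role list the 3 with the highest mean CPM and any that passed the test, the 10 genes most like Ttr and the 3 most like each other member, the top 2 of each marker list where used, Xist and Ddx3y. Some genes under this rule are not reported here. Cldn2, Kcne2, Slc4a5, F5 and Tmem72 are named again where they are under 25% in both low libraries. Gigyf2 was added for its overlap, and Trpv4 and Htr2c because they passed the test without both low libraries. Exon lengths and overlaps are from GENCODE M21, promoters from RefSeq (GRCm38.p6). The TATAAA search was added after the data had been seen. Reads carry no molecular identifiers, so intervals cover counting error only. With 3 or 4 pools per group, p-values measure the spread between these pools.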

Additional observations from a re-analysis of the deposited data

Results flagged for a closer look

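Aqp1 in APP/PS1 replicate 3 was at 4.43 CPM, far from the other 3 libraries of the group, which lay between 2.33 and 2.59 CPM. The gap took up 0.877 of the range of the group. It was the only such library among 16 measures of the 8 genes in APP/PS1, and chance sets about 1 in 20 groups apart in this way. The groups of 3 libraries, which hold WT replicate 3 and N-AS replicate 3, were not examined in this way.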

How the results depend on the processing

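Of 120 alternative log2 fold changes of the 8 genes in each comparison, the sign changed in 2 for APP/PS1 against WT (both Kcnj13), 0 for N-AS against APP/PS1 and 22 for N-AS against WT, and only Aqp1 for N-AS against APP/PS1 without N-AS replicate 2 (−1.72) moved by more than the spread between libraries. The replicate block gave 326 calls over all genes for APP/PS1 against WT and 5 for N-AS against WT, in place of 649 and 35, 0 for N-AS against APP/PS1, and 1 of the other choroid plexus genes (Trpv4 in place of Chst11), and Ttr for APP/PS1 against WT was at 4.57 in place of 1.80. The numbers of WT and APP/PS1 libraries did not pair (r −0.486 to 0.441), nor did those of WT and N-AS (−0.136 to 0.348). DESeq2 called 1297, 73 and 180 genes in the 3 comparisons, and 2 of the other choroid plexus genes for APP/PS1 against WT. Without WT replicate 3 and N-AS replicate 3, chosen after seeing the data, 1058, 1 and 163 genes were called, and 5 of the list. Without the filter, 0 of the list was called. Leaving out 1 library gave 299 to 923, 0 to 1 and 1 to 116 calls. For APP/PS1 against WT these were 430 and 299 and 299 without APP/PS1 replicates 2, 3 and 4, and 319 and 362 without WT replicates 1 and 2. For N-AS against WT they were 15 and 23 without APP/PS1 replicates 2 and 4, 3, 2 and 116 without N-AS replicates 1, 2 and 3, and 5, 1 and 57 without WT replicates 1, 2 and 3. Of the list, 0 to 1 was called, and Chst11 remained without N-AS replicate 2 or WT replicate 3. The causes were not tested. With 5 to 124 reads per library, Folr1, Otx2 and Aqp1 have imprecise ratios, as has Ttr in the 2 low libraries.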
